A study of Drosophila melanogaster with 22 samples.

Results

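The genes examined here form the core of the fly cell death machine, namely the adaptor gene Dark, the caspase genes Dronc, Drice and Dcp-1, and the inhibitor genes Diap1 and Diap2. They were taken as every probe set of the array whose single annotated symbol is 1 of these 6 names. The rule found 5 probe sets for 4 of the 6 genes, out of 18952 probe sets in all. Dark had the sets 1638709_at and 1624898_a_at, Dronc had 1641607_at, Dcp-1 had 1637487_at and Diap2 had 1623698_s_at. Drice and Diap1 were not analysed here. All 5 probe sets lay above the floor used for testing (an intensity of 16, or 4 on the log2 scale) on each of the 22 arrays, so no member was lost to that floor.

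Apoptosis in Drosophila is run by caspases, proteases that are made as inactive precursors. The initiator caspase Dronc is activated on the apoptosome, a ring of Dark, which is the fly relative of Apaf-1, and it then cleaves the effector caspases Drice and Dcp-1, which cut the proteins of the dying cell. The inhibitor Diap1 binds caspases and marks them with ubiquitin, and Reaper, Hid and Grim lift this block. Diap2 is the related inhibitor that restrains Drice and is also needed as a ubiquitin ligase in the Imd immune pathway. In cultured fly cells loss of Diap1 is known to start death through Dark and Dronc.

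The cells were S2, a cultured line of Drosophila melanogaster derived from embryos and related to blood cells. Cells in medium with 10% serum received 20 µg of double-stranded RNA (dsRNA) for 72 h, which leads to the destruction of the matching mRNA. The dsRNA matched Cdk8 (2 arrays), CycC (4), Med12 (4) or Med13 (4), the subunits of the kinase module of the Mediator coactivator, or in controls the foreign genes GFP (4) or Luc, luciferase (4). All groups, controls included, therefore carried dsRNA, and no untreated cells were part of the set. Nothing in the labels ties the arrays of a group to independent cultures, so each p-value reflects array-to-array spread that could be technical.

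The targeted mRNA stood at 14.4% of controls under Cdk8 dsRNA, 3.56% under CycC dsRNA, 9.98% for kto (Med12) and 80.7% for skd (Med13), below all 8 controls on every array of its group. The number of named probe sets above the floor ran from 6308 to 6338 per array, and arrays that shared a dsRNA correlated at 0.996 or more. Of 10 haemocyte markers 9 lay above the floor, with NimC1 below it. No marker of muscle (0 of 2 named) or fat body (0 of 3) and 1 of 4 neuronal markers (elav) did so. In whole cultures fewer cells of a type and less RNA per cell cannot be told apart.

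Dark followed opposite courses in the pairs of knockdowns, Dronc and Diap2 rose with dsRNA against Med12 or Med13, and Dcp-1 passed no test. In a linear model over 5961 genes (limma, Benjamini-Hochberg adjustment over all of them, threshold 0.05), 1 of the 4 measured members rose and none fell under Cdk8 dsRNA, where 10.6% of all genes rose and 8.07% fell. The same count, 1 up and none down, was found under CycC dsRNA, where 13.4% of genes rose and 10.9% fell. Under Med12 dsRNA 2 members rose and 1 fell, against 26.5% and 15.5% of all genes. Under Med13 dsRNA 2 rose and 1 fell, against 21.0% and 11.2%. Over all genes 1249 rose and 669 fell under Med13 dsRNA, a balance that moved to 943 and 911 with median-centred arrays and to 1030 and 842 with quantile-normalized ones. Calls were common in these comparisons, and the counts of members rest on 4 genes. The median log2 difference of the 4 members was 0.09, 0.07, 0.10 and 0.09 for Cdk8, CycC, Med12 and Med13 dsRNA, beside 0.02, 0.01, 0.04 and 0.03 over all genes. The knockdowns share their 8 controls, so the comparisons are not independent of each other.

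**Figure D1:**
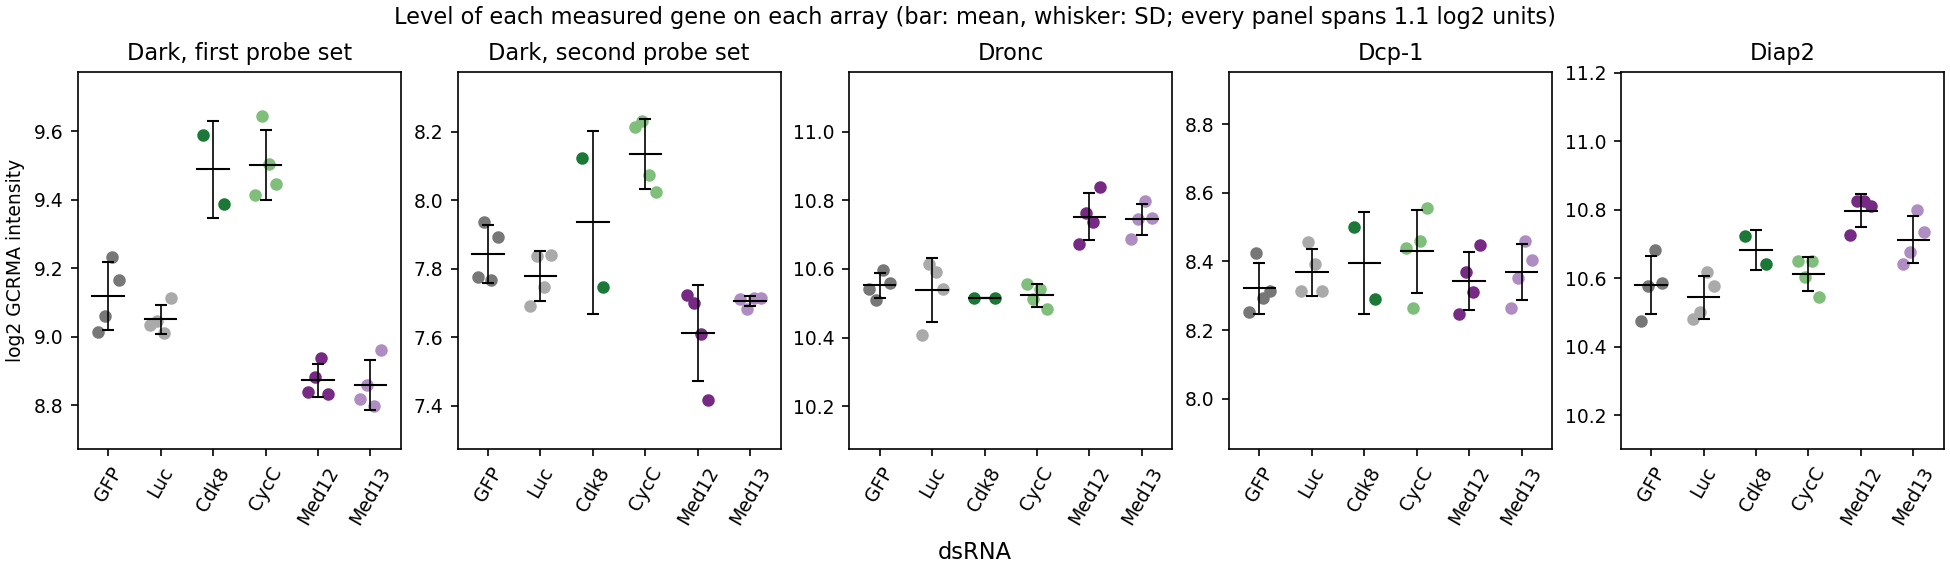
Log2 GCRMA intensity (vertical axis) of each member probe set on every array, by dsRNA (horizontal axis). Points are arrays, bars are group means and whiskers are 1 SD. All panels span the same range, so that the spread of Dark (first probe set, from 8.80 to 9.65) can be set beside that of Dcp-1 (from 8.25 to 8.56).

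Dark, which assembles the apoptosome, had the widest range of the members. On its brighter probe set the 4 GFP arrays read 9.02, 9.06, 9.23 and 9.17 on the log2 scale, and the 4 Luc arrays read 9.03, 9.05, 9.01 and 9.11. The Cdk8 arrays read 9.59 and 9.39, and the CycC arrays 9.41, 9.65, 9.51 and 9.45. The Med12 arrays read 8.84, 8.88, 8.94 and 8.83, and the Med13 arrays 8.82, 8.86, 8.80 and 8.96. Thus every Cdk8 and CycC array lay above all 8 controls and every Med12 and Med13 array below all 8. Ordered by mean, the groups ran Med13, Med12, Luc, GFP, Cdk8 and CycC. The ranges of Med13 and Med12, of Luc and GFP, and of Cdk8 and CycC overlapped, and the steps from Med12 to Luc and from GFP to Cdk8 did not.

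The rise of Dark was 1.32-fold under Cdk8 dsRNA (log2 0.40 ± 0.06 SE, n = 2 against 8, limma adjusted p = 0.000116) and 1.34-fold under CycC dsRNA (0.42 ± 0.05, n = 4 against 8, limma adjusted p = 2.02e-06). These differences were larger in size than those of 95.1% and 96.2% of the 5961 genes. Dark fell under Med12 dsRNA by 13.7% (log2 -0.21 ± 0.05, limma adjusted p = 0.00185) and under Med13 dsRNA by 14.4% (-0.22 ± 0.05, limma adjusted p = 0.00162). Differences of this size were ordinary among all genes, with 77.0% and 84.3% of genes showing smaller ones. With 1 Cdk8 array left in the group, the rise was 0.30 without Cdk8 1 and 0.50 without Cdk8 2, and it passed the threshold both times. In those fits the spread of the lone array is borrowed from the remaining groups.

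The dimmer Dark probe set had differences of the same sign and smaller size. Its values were 7.78, 7.94, 7.77 and 7.89 with GFP dsRNA and 7.69, 7.84, 7.75 and 7.84 with Luc dsRNA. The Cdk8 arrays read 8.12 and 7.75, apart from each other by more than the whole spread of the controls. The CycC arrays read 8.21, 8.23, 8.08 and 8.02, all above the 8 controls, the Med12 arrays 7.72, 7.70, 7.61 and 7.42, and the Med13 arrays 7.71, 7.68, 7.71 and 7.71. All neighbouring groups overlapped in range on this set. Tested among 6403 probe sets one by one, it rose under CycC dsRNA (0.32 ± 0.06, limma adjusted p = 0.000902) and fell under Med12 dsRNA (-0.20 ± 0.06, limma adjusted p = 0.0186). It did not pass under Cdk8 dsRNA (0.12, 95% interval -0.05 to 0.30, limma adjusted p = 0.349) or Med13 dsRNA (-0.11, -0.24 to 0.03, limma adjusted p = 0.234). The share of probe sets called in this fit was 18.0% for Cdk8, 23.5% for CycC, 40.6% for Med12 and 31.2% for Med13 dsRNA. The Dark calls under Cdk8 and Med13 dsRNA therefore rest on 1 of its 2 probe sets.

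**Figure D2:**
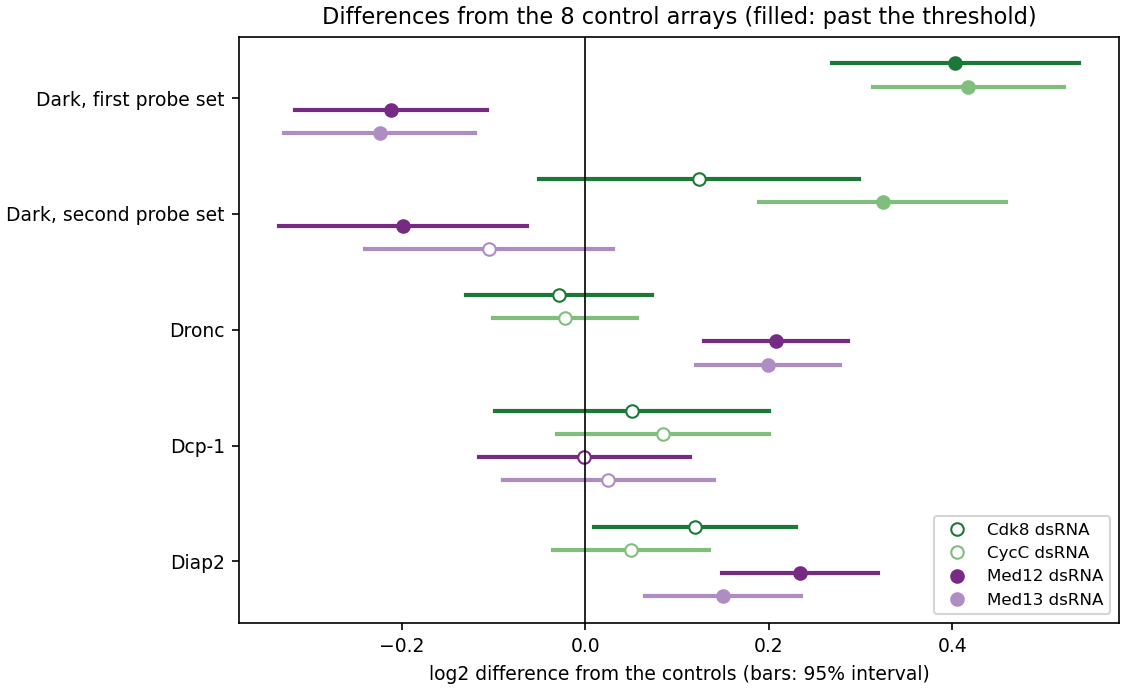
Log2 difference of each member probe set from the mean of the GFP and Luc groups (horizontal axis) with its 95% interval, for the 4 knockdowns, from the fit in which every probe set was tested on its own. Filled points passed the threshold. Dark (first set) lies at 0.40 and 0.42 for Cdk8 and CycC and at -0.21 and -0.22 for Med12 and Med13, and all intervals of Dcp-1 include 0.

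Dronc, the initiator caspase that Dark activates, was high with Med12 or Med13 dsRNA. The GFP arrays read 10.54, 10.51, 10.60 and 10.56, and the Luc arrays 10.41, 10.62, 10.59 and 10.54. The Med12 arrays read 10.67, 10.76, 10.74 and 10.84 and the Med13 arrays 10.69, 10.75, 10.80 and 10.75, so that all 8 lay above all 8 controls. Both Cdk8 arrays read 10.52, and the CycC arrays 10.56, 10.51, 10.54 and 10.48, all within the range of the controls. In order of mean the groups ran Cdk8, CycC, Luc, GFP, Med13 and Med12, and the step from GFP to Med13 was the only one between neighbours whose ranges did not overlap.

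Dronc rose 1.16-fold under Med12 dsRNA (log2 0.21 ± 0.04 SE, n = 4 against 8, limma adjusted p = 0.000169) and 1.15-fold under Med13 dsRNA (0.20 ± 0.04, limma adjusted p = 0.000362). Rises of this size were ordinary too, with 76.3% and 81.2% of genes showing smaller differences. Under Cdk8 dsRNA the difference was -0.03 (95% interval -0.13 to 0.07, limma adjusted p = 0.740) and under CycC dsRNA -0.02 (-0.10 to 0.06, limma adjusted p = 0.729). A change of Dronc as large as that in the Med12 group lay outside both intervals. Leaving out single arrays kept the Med12 difference between 0.18 and 0.23 and the Med13 difference between 0.18 and 0.22, past the threshold each time.

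**Figure D3:**
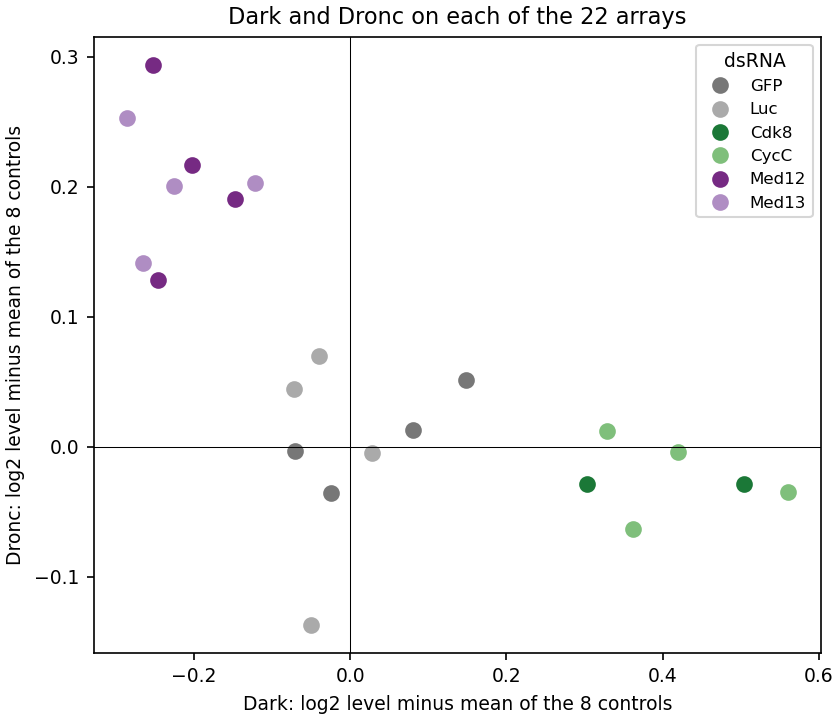
Dark (horizontal axis, brighter probe set) and Dronc (vertical axis) on each of the 22 arrays, as the log2 level minus the mean of the 8 controls, coloured by dsRNA. The Med12 and Med13 arrays sit at upper left (Dark from -0.29 to -0.12, Dronc from 0.13 to 0.29), and the Cdk8 and CycC arrays sit at right (Dark from 0.30 to 0.56, Dronc from -0.06 to 0.01).

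Diap2, the inhibitor with an additional role in Imd signalling, rose in the same groups as Dronc. Its levels were 10.48, 10.58, 10.68 and 10.59 with GFP dsRNA and 10.48, 10.50, 10.62 and 10.58 with Luc dsRNA. The Med12 arrays read 10.73, 10.83, 10.82 and 10.81, all above the controls. The Med13 arrays read 10.64, 10.68, 10.80 and 10.73, of which 2 lay above all controls. With Cdk8 dsRNA the level was 10.72 and 10.64, and with CycC dsRNA 10.65, 10.61, 10.65 and 10.55. The groups ran Luc, GFP, CycC, Cdk8, Med13 and Med12 by mean, and each overlapped its neighbour in range.

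The rise of Diap2 was 1.18-fold under Med12 dsRNA (log2 0.23 ± 0.04 SE, n = 4 against 8, limma adjusted p = 0.000108) and 1.11-fold under Med13 dsRNA (0.15 ± 0.04, limma adjusted p = 0.00749). Smaller differences were found for 80.24% and 71.15% of genes, so these sizes were ordinary as well. The difference under Cdk8 dsRNA was 0.12 (95% interval 0.01 to 0.23), which missed the threshold after adjustment (limma adjusted p = 0.124), and under CycC dsRNA it was 0.05 (-0.04 to 0.13, limma adjusted p = 0.415). In Affymetrix naming the suffix of the Diap2 probe set marks probes that can match more than a single transcript, so its value may hold signal of another RNA. Of the pathway genes described below, Cul3, grp, lok and EcR have probe sets with the same suffix and share this limit.

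Dcp-1, an effector caspase, passed the test in no comparison. Its 8 control arrays ran from 8.25 to 8.46. The Cdk8 arrays read 8.50 and 8.29, the CycC arrays 8.44, 8.26, 8.46 and 8.56, the Med12 arrays 8.25, 8.37, 8.31 and 8.45, and the Med13 arrays 8.27, 8.35, 8.46 and 8.40, so that every group overlapped the controls. The largest difference from controls was 0.08 (95% interval -0.03 to 0.20, limma adjusted p = 0.296) under CycC dsRNA. The interval was -0.10 to 0.20 for Cdk8, -0.12 to 0.11 for Med12 and -0.09 to 0.14 for Med13 dsRNA, so that a rise of the size of Dark in the CycC group lay outside all 4. The group means of Dcp-1 spanned 0.11 with a within-group SD of 0.09. For Dark these were 0.64 and 0.08, for Dronc 0.24 and 0.06, and for Diap2 0.25 and 0.06 (within-group SD over 16 degrees of freedom).

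The difference between the pairs of knockdowns was tested directly, in a contrast of the Med12 and Med13 groups, averaged, against the averaged Cdk8 and CycC groups, in which the controls drop out. Dark was 1.55-fold lower in the Med12 and Med13 pair (log2 -0.63 ± 0.05 SE, 8 arrays against 6, limma adjusted p = 4.09e-10), with all 8 arrays below all 6. Its other probe set differed by -0.38 ± 0.06 (limma adjusted p = 2.55e-05), also with all 8 below all 6. Dronc was 1.17-fold higher in that pair (0.23 ± 0.03, limma adjusted p = 1.42e-05), with all 8 arrays above all 6. Diap2 was 1.08-fold higher (0.11 ± 0.04, limma adjusted p = 0.0213), with 6 of 8 arrays above all 6, and this call was lost without Cdk8 2 (0.09, limma adjusted p = 0.124). Dcp-1 did not pass (-0.06, 95% interval -0.16 to 0.05, limma adjusted p = 0.381). So 2 of 4 members were higher and 1 was lower, beside 26.9% and 22.2% of all genes, and 47.9% of probe sets tested singly. The size of the Dark difference exceeded that of 96.4% of genes, that of Dronc 78.6% and that of Diap2 48.8%.

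Within each pair none of the 4 members, each by its brightest probe set, passed the limma test at the adjusted threshold or at an unadjusted p of 0.05. Between Med12 and Med13 dsRNA, where 0.872% of all genes differed, the 95% intervals were -0.11 to 0.13 for Dark, -0.08 to 0.10 for Dronc, -0.16 to 0.11 for Dcp-1 and -0.01 to 0.18 for Diap2. Between Cdk8 and CycC dsRNA, where 0.101% differed, they were -0.16 to 0.13 for Dark, -0.12 to 0.10 for Dronc, -0.20 to 0.13 for Dcp-1 and -0.05 to 0.19 for Diap2. The second Dark set was lower with Cdk8 than with CycC dsRNA by a log2 value of -0.20 (-0.39 to -0.01), an interval that leaves out 0 before adjustment, and did not pass after it (limma adjusted p = 0.953). Between the GFP and Luc controls, where 0.0336% of genes differed, no member passed either (log2 differences from -0.05 to 0.07, limma adjusted p from 0.993 to 0.996).

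The direct partners of the core machine were measured in part. Of the death activators HtrA2, a mitochondrial protease that can cleave Diap1, lay above the floor, while grim and skl, which bind inhibitors of apoptosis, were below it. Of the 7 names in that list 3 had a probe set of single symbol and 1, HtrA2, was measured. The genes of Reaper and Hid were thus not measured. HtrA2 rose under Med12 dsRNA (log2 0.32 ± 0.12 SE, limma adjusted p = 0.0364) and stood at 0.16 ± 0.12 under Med13, -0.03 under Cdk8 and -0.02 under CycC dsRNA, none of which passed. Its single call was lost without any of the arrays Med12 1, Med12 2, Med12 3, GFP 1, GFP 4, Luc 1 or Luc 2. It was also lost with GFP arrays alone as control, without the floor and after quantile normalization. With a floor of log2 6 HtrA2 was no longer tested, because too few arrays reached it (group means from 5.47 to 5.86). Of the other caspases Dredd, which acts in Imd signalling, passed in no comparison with controls (log2 differences from -0.06 to 0.10), and Damm was below the floor. Strica, a caspase with a long prodomain that acts beside Dronc in the female germ line, fell under Med12 (-0.20 ± 0.03, limma adjusted p = 0.000126) and Med13 dsRNA (-0.16 ± 0.03, limma adjusted p = 0.00110). It differed from controls by -0.02 under Cdk8 and 0.02 under CycC dsRNA, and between the pairs by -0.18 ± 0.03 (limma adjusted p = 8.79e-05). Debcl, a Bcl-2 family gene that promotes death, fell under Med12 (-0.31 ± 0.04, limma adjusted p = 1.03e-05) and Med13 dsRNA (-0.24 ± 0.04, limma adjusted p = 0.000210). Its values were 0.03 and -0.02 under Cdk8 and CycC dsRNA, and the family member Buffy was below the floor.

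Of 9 measured genes of other BIR domain and ubiquitin proteins 2 rose under Med12 and 2 under Med13 dsRNA, none fell, and none passed under Cdk8 (0 at an unadjusted p of 0.05) or CycC dsRNA (2 higher at that level). Of all genes 10.6% and 13.4% rose under Cdk8 and CycC dsRNA. The shares that fell were 8.07%, 10.9%, 15.5% and 11.2% for Cdk8, CycC, Med12 and Med13 dsRNA. The 2 rises under each of Med12 and Med13 dsRNA lie near the shares of all genes that rose there, 26.5% and 21.0%. The genes that rose were Cul3, a scaffold of ubiquitin ligases needed for caspase activation in sperm development (log2 0.15 and 0.13 for Med12 and Med13), and mib2, a ubiquitin ligase (0.13 and 0.15). The count was 0 in both knockdowns with Luc arrays alone as control, and 1 under Med12 dsRNA without Med12 1, Med12 2 or Med12 4. Under Med13 dsRNA it was 0 without Med13 3 and 1 without Med13 1, Med13 2, GFP 1, GFP 3, GFP 4 or Luc 1, and also 1 after median centring, after quantile normalization, without the floor, with GFP arrays alone as control or with only the groups compared. Bruce, a giant BIR protein that opposes death, lay between 0.02 and 0.16 in the 4 knockdowns and passed in none. Of 4 measured caspase targets and nucleases Acn, a chromatin protein cleaved in apoptosis, fell under CycC dsRNA (-0.12 ± 0.04, limma adjusted p = 0.0328), a call lost without CycC 1, CycC 4, GFP 3 or Luc 4. AIF, a mitochondrial flavoprotein, fell under Med12 dsRNA (-0.14 ± 0.04, limma adjusted p = 0.00551). EndoG, a mitochondrial nuclease, passed against controls in no knockdown (from -0.12 to 0.08). It was higher in the Med12 and Med13 pair than in the Cdk8 and CycC pair (0.17 ± 0.05, limma adjusted p = 0.00982). Against controls no gene of the group passed under Cdk8 dsRNA (1 higher at an unadjusted p of 0.05) or Med13 dsRNA (0 at that level). Counts over 4 genes are too small to be read against the shares of all genes given above.

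**Figure D4:**
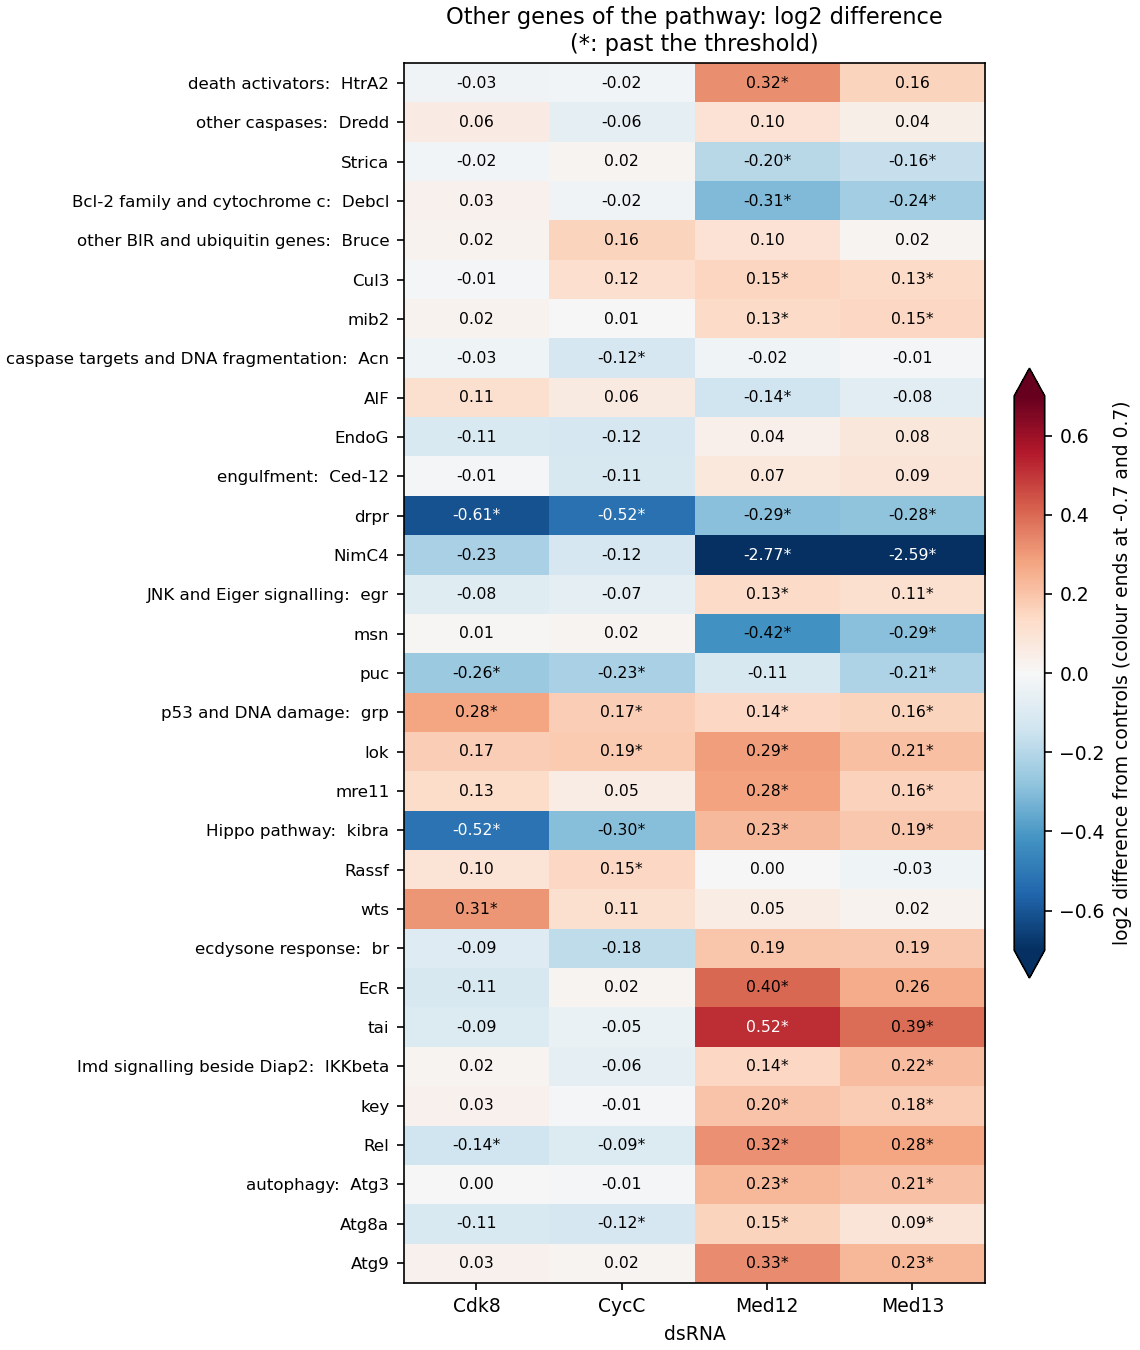
Log2 difference from controls (number and colour) of genes around the core machine, with a row for each gene and a column for each dsRNA. Stars mark values past the threshold. Genes are the 3 with the smallest p over the knockdowns in each list, or all where fewer were measured, so they are chosen by p over all 4 knockdowns and not every row holds a called value. Values run from -2.77 for NimC4 to 0.52 for tai.

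Engulfment genes act in the disposal of dead cells. Of 5 measured engulfment genes 1 fell under Cdk8, 2 under CycC, 2 under Med12 and 2 under Med13 dsRNA, and 1 (Shark, named after its value was seen) rose under Med12 dsRNA. Of all genes 8.07%, 10.9%, 15.5% and 11.2% fell in these knockdowns, and the counts over 5 genes are too small to be read against them. The CycC count was 1 without CycC 2, CycC 3, CycC 4, GFP 1, GFP 4 or Luc 4. The gene drpr, which encodes a receptor for dying cells, fell in all 4 knockdowns. Its log2 difference was -0.61 ± 0.05 SE under Cdk8 (limma adjusted p = 6.16e-09) and -0.52 ± 0.04 under CycC dsRNA (limma adjusted p = 6.94e-10). It was -0.29 ± 0.04 under Med12 (limma adjusted p = 1.44e-06) and -0.28 ± 0.04 under Med13 dsRNA (limma adjusted p = 3.33e-06). The pairs differed by 0.28 ± 0.03 (limma adjusted p = 5.97e-07), so the fall was deeper with Cdk8 and CycC dsRNA, where Dark was high. NimC4, a receptor for apoptotic cells, fell with Med12 and Med13 dsRNA (-2.77 ± 0.11 and -2.59 ± 0.11). It did so from a control level of 6.67 ± 0.15 (SD, n = 8) to 3.90 and 4.07, at the floor, where the fold depends on the background correction. Ced-12, an engulfment adaptor, passed against controls in no knockdown (from -0.11 to 0.09), and between the pairs it differed by 0.15 ± 0.04 (limma adjusted p = 0.00804).

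Of 14 measured genes of Eiger and JNK signalling, a route that can induce death genes in flies, 1 rose and 2 fell under Cdk8 dsRNA, 1 rose and 3 fell under CycC, 4 rose and 3 fell under Med12, and 4 rose and 3 fell under Med13 dsRNA. Of all genes 10.6%, 13.4%, 26.5% and 21.0% rose and 8.07%, 10.9%, 15.5% and 11.2% fell, so the counts under Med12 dsRNA lie near those shares. The Cdk8 count was 0 without Cdk8 2. The Med12 count of 7 became 4 without Cdk8 1, Cdk8 2, Med12 1, Luc 1 or Luc 4, and the CycC count of 4 became 2 without CycC 1, CycC 4, GFP 3, Luc 2 or Luc 3. With Luc arrays alone as control the counts were 0 for Cdk8, 2 for CycC and 3 each for Med12 and Med13. The ligand gene egr rose under Med12 (log2 0.13 ± 0.04 SE) and Med13 dsRNA (0.11 ± 0.04) and stood at -0.08 and -0.07 under Cdk8 and CycC dsRNA. The kinase gene msn fell with Med12 (-0.42 ± 0.05) and Med13 dsRNA (-0.29 ± 0.05). The phosphatase gene puc, a target and inhibitor of JNK, fell with Cdk8 (-0.26 ± 0.06), CycC (-0.23 ± 0.05) and Med13 dsRNA (-0.21 ± 0.05) and was at -0.11 with Med12 dsRNA.

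The DNA damage response can induce reaper through p53. Of 12 measured genes of that response 8 rose and none fell under Med12 dsRNA, and 7 rose and none fell under Med13 dsRNA, with list medians of 0.13 and 0.12, where 26.5% and 21.0% of all genes rose with medians of 0.04 and 0.03. Under Cdk8 dsRNA 1 rose and 1 fell, and under CycC dsRNA 2 rose and 1 fell, with list medians of 0.10 and 0.07. Of all genes 10.6% and 13.4% rose there, with medians of 0.02 and 0.01. The shares of all genes that fell were 8.07%, 10.9%, 15.5% and 11.2% for Cdk8, CycC, Med12 and Med13 dsRNA. The Cdk8 count of 2 became 1 without Cdk8 1 or Cdk8 2, and 4 without Luc 3. The checkpoint kinase gene grp rose in all 4 knockdowns (log2 0.28, 0.17, 0.14 and 0.16 for Cdk8, CycC, Med12 and Med13). The kinase gene lok, which activates p53, rose under CycC, Med12 and Med13 dsRNA (0.19, 0.29 and 0.21) and stood at 0.17 under Cdk8 dsRNA (limma adjusted p = 0.0556). The repair nuclease gene mre11 rose under Med12 (0.28) and Med13 dsRNA (0.16).

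Hippo signalling controls Diap1 transcription in fly tissues through the coactivator Yorkie. Of 10 measured genes 2 rose and 1 fell under Cdk8 dsRNA, 1 rose and 1 fell under CycC, 3 rose and none fell under Med12, and 2 rose and 1 fell under Med13 dsRNA. Of all genes 10.6%, 13.4%, 26.5% and 21.0% rose in these knockdowns, and 8.07%, 10.9%, 15.5% and 11.2% fell. The rises under Med12 and Med13 dsRNA lie near those shares. The Cdk8 count was 1 without Cdk8 1, and the Med13 count was 1 without Med13 2, Med13 3, GFP 1 or Luc 1. The gene kibra, an upstream activator of the pathway, fell with Cdk8 (log2 -0.52 ± 0.09 SE) and CycC dsRNA (-0.30 ± 0.07) and rose with Med12 (0.23 ± 0.07) and Med13 dsRNA (0.19 ± 0.07). Its difference between the pairs was 0.62 ± 0.06 (limma adjusted p = 6.61e-08), opposite in sign to that of Dark. The kinase gene wts rose with Cdk8 dsRNA (0.31 ± 0.07), and Rassf, an inhibitor of the kinase Hippo, rose with CycC dsRNA (0.15 ± 0.04).

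Ecdysone, the steroid of moulting, induces Dronc in dying larval tissues. Of 6 measured genes of its response 3 rose under Med12 and 3 under Med13 dsRNA, 1 rose under CycC dsRNA and none passed under Cdk8 dsRNA (0 at an unadjusted p of 0.05), where 26.5%, 21.0%, 13.4% and 10.6% of all genes rose. The coactivator gene tai rose with Med12 (log2 0.52 ± 0.08 SE, limma adjusted p = 1.96e-05) and Med13 dsRNA (0.39 ± 0.08, limma adjusted p = 0.000589). The receptor gene EcR rose with Med12 dsRNA (0.40 ± 0.10, limma adjusted p = 0.00345) and stood at 0.26 ± 0.10 with Med13 dsRNA (limma adjusted p = 0.0578). The transcription factor gene br was at 0.19 in both and did not pass against controls, while between the pairs it differed by 0.32 ± 0.08 (limma adjusted p = 0.00199). The Med13 count of 3 was 1 without Med13 1, Med13 4, GFP 3 or Luc 1 and 5 without Med13 3. It stayed within 1.5 times in 6 of the 11 processing alternatives. In the rest it was 1, among them centring on the median and quantile normalization. The CycC call, Hr39, a nuclear receptor gene named after its value was seen, was lost in most of the alternatives tried.

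Diap2 acts in the Imd pathway, and 9 genes beside it there were measured. Under Med12 and Med13 dsRNA alike 3 rose and 1 fell, while under Cdk8 and CycC dsRNA none rose and 3 fell. Of all genes 26.5% and 21.0% rose and 15.5% and 11.2% fell under Med12 and Med13 dsRNA, and 8.07% and 10.9% fell under Cdk8 and CycC dsRNA, so the Med12 counts lie near those shares. The NF-κB gene Rel rose with Med12 (log2 0.32 ± 0.03 SE) and Med13 dsRNA (0.28 ± 0.03) and fell with Cdk8 (-0.14 ± 0.04) and CycC dsRNA (-0.09 ± 0.03). The kinase complex genes key (0.20 and 0.18 for Med12 and Med13) and IKKbeta (0.14 and 0.22) rose with Diap2. With only the groups compared, none of the 9 genes passed under Cdk8 dsRNA. With Luc arrays alone as control, 1 passed under CycC dsRNA. The falls under Cdk8 dsRNA were lost without Cdk8 2, and those under CycC dsRNA numbered 1 without CycC 1, CycC 2, CycC 3, GFP 1, Luc 2 or Luc 3 and 0 without CycC 4, while the counts under Med12 and Med13 dsRNA stayed at 4 or 5 with any array left out.

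Dcp-1 also takes part in starvation-induced autophagy in the fly ovary. Of 18 measured autophagy genes 13 rose and none fell under Med12 dsRNA and 6 rose and none fell under Med13 dsRNA, with list medians of 0.14 and 0.09, where 26.5% and 21.0% of all genes rose with medians of 0.04 and 0.03. The Med12 count was 8 without Med12 2 and 7 after quantile normalization, and the Med13 count was 3 without Med13 3. The Med13 count was also 3 with Luc arrays alone as control. Under Cdk8 dsRNA 2 rose (1 in most fits with an array left out) and none fell, and under CycC dsRNA 1 rose and 2 fell. Of all genes 10.6% and 13.4% rose under Cdk8 and CycC dsRNA. The shares that fell were 8.07%, 10.9%, 15.5% and 11.2% for Cdk8, CycC, Med12 and Med13 dsRNA. The Cdk8 rises and the CycC falls lie near those shares. Examples were the membrane protein gene Atg9 (log2 0.33 ± 0.05 and 0.23 ± 0.05 SE for Med12 and Med13), the conjugating enzyme gene Atg3 (0.23 and 0.21) and Atg8a, which coats autophagosomes (0.15 and 0.09). Atg8a fell with CycC dsRNA (-0.12 ± 0.03).

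Among all tested genes, those whose log2 values followed a member most closely over the 22 arrays were listed by Pearson's r, as a description. The arrays share preparation and fall into groups, which raises r for any pair of genes that respond. For Dark they were CG17350 (r = 0.96), CG9837 (0.96) and bbc (0.95), a phospholipid synthesis gene. For Dronc they were CG11125 (0.95), the nucleotide sugar transporter gene Efr (0.95) and JhI-26 (0.95). For Diap2 they were Usp30 (0.91), Tbc1d15-17 (0.91) and CG14767 (0.89). For Dcp-1 the closest was the splicing gene tra2 with r = 0.72, followed by bora and ND-13A (0.65 each). CG9837, like Dark, was higher with Cdk8 and CycC dsRNA (log2 differences of 0.85 and 0.76) and lower with Med12 and Med13 dsRNA (-0.49 and -0.52), with larger sizes.

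Some of the cell type markers differed between the groups. Of 9 measured haemocyte markers 6 fell under Med12 and 4 under Med13 dsRNA, where 15.5% and 11.2% of all genes fell. Dronc and Diap2 rose in these groups. Falls were also found under Cdk8 dsRNA (2 of 9) and CycC dsRNA (3 of 9), where 8.07% and 10.9% of all genes fell. The marker Pxn rose in both. The summed intensity of the named haemocyte markers ran from 49080 to 51940 on the Med12 arrays and from 52250 to 55820 on the Med13 arrays. It ran from 56900 to 58650 with GFP and from 55970 to 60640 with Luc dsRNA. With Cdk8 dsRNA this sum ran from 59820 to 60190 and with CycC dsRNA from 58290 to 58980, so it was not lower there. The germ line genes bam and aub rose under Cdk8 and CycC dsRNA, where Dark rose, with a summed intensity of the 3 named germ line markers from 115.3 to 168.5 against 56.45 to 65.5 in controls, while vas stayed below the floor. Of 4 crystal cell markers PPO1, a prophenoloxidase gene, lay above the floor, and it rose under CycC dsRNA (log2 0.56) and fell under Med12 (-0.51) and Med13 dsRNA (-0.49), the directions of Dark. The summed intensity of those 4 markers ran from 136 to 169.1 with CycC, from 123 to 129.3 with Cdk8, from 74.15 to 101.4 with Med12 or Med13 and from 93.93 to 143.8 with control dsRNA. Of 4 lamellocyte markers mys and PPO3 lay above the floor. Of these 2 genes 1 fell under Cdk8, 1 under CycC, 2 under Med12 and 2 under Med13 dsRNA. Of all genes 8.07%, 10.9%, 15.5% and 11.2% fell, and counts over 2 genes are too small to be read against these shares. The sums of the lamellocyte markers ran from 3928 to 5430 on knockdown arrays and from 4651 to 5376 on controls. The neuronal gene elav rose under Med12 dsRNA (0.29). Their part in the differences of Dark, Dronc and Diap2 was not tested.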

How the data were processed

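The deposited table holds intensity values on a linear scale, made by the authors with GCRMA per the submitters' processing notes (background correction, normalization between arrays, a single value per probe set). Its version, its settings and the genome build are not given in the sources used here. RNA was labelled from 4 µg of total RNA per array, per the labels' protocols. Because normalization sets all arrays to a common scale, a shift shared by all genes would not show.

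From these values log2 was taken. Of 18952 probe sets 183 controls were left out, 13647 had 1 symbol, 402 several and 4720 none. Symbols were checked by gene identifier against RefSeq (13544 found). Probe sets at log2 4 or more on at least 2 arrays were kept, and the brightest represented its gene (5961 genes, 6403 probe sets). Groups came from the sample titles. A model with a mean per group over 22 arrays (limma 3.58.1 in R 4.3.3, 16 residual degrees of freedom, median moderated SD 0.0793) gave two-sided p-values, adjusted by Benjamini-Hochberg over all genes. Knockdowns were set against the mean of the GFP and Luc means. Members and lists were chosen with earlier results of these data known. Named genes are all members, the 3 of each list with the smallest F-test p over the knockdowns, and the 3 most correlated with each member. The number of arrays limits the precision. Sequences of the genes were not used here.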

Additional observations from a re-analysis of the deposited data

Results flagged for a closer look

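In 25 sets of 4 arrays (5 probe sets in 5 groups), 2 held an array far from the other 3 of its group, by a gap over range above 0.829. Chance flags about 1 in 20 such sets. The second Dark probe set read 7.68 on Med13 2 against 7.71 on the other 3 arrays, a gap of 0.951 of a range that is itself small. Diap2 read 10.73 on Med12 1 against 10.81 to 10.83 on the others (0.838 of the range), and without that array its rise under Med12 dsRNA was 0.26.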

How the results depend on the processing

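Alternatives were median centring, quantile normalization, no floor, a floor of log2 6, a pseudocount of 16, the mean of a gene's probe sets, eBayes with trend, only the groups compared, GFP or Luc alone as control, the replicate number as a block and each array left out. The member counts in the 8 comparisons stayed within 1.5 times, except under Cdk8 dsRNA, where the replicate block gave 2 in place of 1 since Diap2 passed (0.15, limma adjusted p = 0.0239). The labels tie the numbers to no batch, and the data did not pair the arrays throughout: of 50 same-numbered pairs 25 had deviations correlated above 0.1 (from -0.24 to 0.44), and 12 of 22 arrays correlated best with their own number, a hint from the data and not from the design. Over all genes, GFP against Luc gave 2 calls, 4 after centring or quantile normalization and 5 with the replicate block. With only the groups compared, Med12 against Med13 gave 33 in place of 52 and Cdk8 against CycC 3 in place of 6. With single arrays left out, the calls ran from 538 (without Cdk8 1) to 1180 for Cdk8, from 2 to 10 for GFP against Luc (10 without Luc 4), from 25 (without Med12 3) to 69 for Med12 against Med13 and from 3 to 8 for Cdk8 against CycC. The count was 623 without Cdk8 2 and 34 without Med13 4. The other Dark probe set, an alternative chosen after seeing the data, ended the Dark calls for Cdk8 and Med13. No call of a member reversed in the settings run. Small differences of weak probes are limited by signal over background.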

Other observations

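The protein-coding neighbours of the members were looked at in gene order (RefSeq, Release 6), up to 2 genes on each side. Ehbp1, 2 genes from Dark, rose in all 4 knockdowns (log2 0.35, 0.36, 0.41 and 0.18 for Cdk8, CycC, Med12 and Med13 dsRNA), and its difference between the pairs of knockdowns was -0.06 (limma adjusted p = 0.306), where that of Dark was -0.63. Paip1, adjacent to Dark, rose under Med12 (0.16, limma adjusted p = 0.000884) and Med13 dsRNA (0.10, limma adjusted p = 0.0302), where Dark fell. Beside Dcp-1, which passed in no comparison, Rrp4, an exosome subunit gene, fell under Med12 (-0.33, limma adjusted p = 0.000126) and Med13 dsRNA (-0.21, limma adjusted p = 0.00982). Beside Dronc, CG6674 rose under Med12 dsRNA (0.24, limma adjusted p = 0.00238). The Diap2 neighbour bdg rose under Med12 dsRNA (0.13, limma adjusted p = 0.0378). It was also higher in the Med12 and Med13 pair than in the Cdk8 and CycC pair (0.18, limma adjusted p = 0.00229), the direction of Diap2. The Dcp-1 neighbour levy passed between the pairs alone (0.09, limma adjusted p = 0.0117).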
